A study of Homo sapiens with 4 samples.

Results

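Divergent promoter lncRNAs are noncoding transcripts that leave the promoter of a protein-coding gene in the opposite direction, and their gene symbols end in -DT after the name of that partner gene. The 128 described here are the lncRNA genes with such a symbol and a mean normalized count of at least 20 over all libraries, out of 284 -DT genes and 51740 rows in the deposited table. The members were chosen by name and by that measured mean, so the mean is given only as a description. RNA was measured in nuclear and cytoplasmic fractions of HEK293T, a human embryonic kidney cell line transformed with adenovirus DNA and expressing the large T antigen of SV40. All cells were wildtype and crosslinked with formaldehyde, so the fractions shared genotype and treatment, and 2 Nuclear and 2 Cytoplasmic libraries, numbered Rep1 and Rep2 in each fraction, were compared to find where each RNA resided. HEK293T is a single transformed line. Every library received 400 ng of RNA, so a value is relative to the other RNA in its fraction, whatever the amount in a cell. Less RNA of a kind per cell and a larger pool of other RNA in that fraction cannot be told apart. Normalized counts were divided by size factors and are not shares of a library. Their totals were 18303000 and 17970400 in the nuclear and 28363600 and 29045100 in the cytoplasmic libraries. Scaling to equal library totals shifted the log2 fold changes by -0.66, so a sign can differ from that of the shares.

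Most active promoters of human genes are rich in CpG dinucleotides and lie free of nucleosomes, and RNA polymerase II starts from them in both directions. Upstream transcription is usually terminated early, at poly(A) signals that are not suppressed by U1 snRNP, and the short products are removed in the nucleus by the RNA exosome with its adaptor complexes. Some upstream transcripts escape this fate, are spliced and polyadenylated, and are annotated as lncRNA genes. Splicing takes place in the nucleus, and many mature polyadenylated RNAs are then exported.

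The libraries held about 24543575 and 21370526 counts on genes in the nuclear fraction and 24190365 and 21917489 in the cytoplasmic fraction, and the deposited table does not say which replicate number each of them carries. They are therefore called the deeper and the shallower library of a fraction. MALAT1, a lncRNA retained in nuclear speckles, had normalized counts of 28571 and 33938 in the nuclear libraries against 3153 and 2485 in the cytoplasmic libraries. Of the markers of the line, the intermediate filament genes VIM, NEFL and NEFM had means of 18261, 13195 and 16264, and KRT8, KRT18 and PAX2 of 881, 1751 and 63.1. PTPRC of leukocytes and PECAM1 of endothelium were near 0 at means of 1.76 and 6.22, while the collagen genes COL1A1 and COL3A1 of fibroblasts were at 213 and 92.7. The study's methods call the replicates of a fraction independent and biological, and with 2 of them the estimate of their spread is limited.

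Each of the 128 divergent transcripts had a protein-coding gene of the matching name in the table, and each lay on the opposite strand of the same chromosome in GENCODE 44. Pairs follow the names of the deposited table, and GENCODE 44 names 2 members otherwise, FBXO30-DT as EPM2A-DT and MAFG-DT as MILIP. The starts were at most 500 bases apart for 109 pairs and at most 2000 bases apart for 121 pairs. For 86 pairs the annotated starts pointed away from each other without overlap, at a median of 114 bases, and for 42 pairs the transcript started inside the partner gene or beyond it. The whole stretch between the starts is shown for the 3 most nuclear and the 3 most cytoplasmic transcripts among those with a called difference and a stretch of at most 300 bases, since both RNAs of such a pair leave from it. The sequences are from hg38, 5′ to 3′ on the strand of the partner gene, and capitals mark the first 20 transcribed bases at either end, the divergent transcript on the left (seen on its opposite strand) and the partner on the right.
RSL1D1-DT: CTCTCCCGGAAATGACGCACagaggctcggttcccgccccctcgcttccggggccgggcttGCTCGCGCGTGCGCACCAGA
FRG1-DT: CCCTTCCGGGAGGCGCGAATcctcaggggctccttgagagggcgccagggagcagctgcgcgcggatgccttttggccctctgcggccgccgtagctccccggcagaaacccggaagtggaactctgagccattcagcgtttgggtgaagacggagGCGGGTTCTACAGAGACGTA
PSMD7-DT: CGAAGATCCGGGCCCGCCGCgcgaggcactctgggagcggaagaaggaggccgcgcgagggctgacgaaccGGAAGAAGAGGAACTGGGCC
KDM7A-DT: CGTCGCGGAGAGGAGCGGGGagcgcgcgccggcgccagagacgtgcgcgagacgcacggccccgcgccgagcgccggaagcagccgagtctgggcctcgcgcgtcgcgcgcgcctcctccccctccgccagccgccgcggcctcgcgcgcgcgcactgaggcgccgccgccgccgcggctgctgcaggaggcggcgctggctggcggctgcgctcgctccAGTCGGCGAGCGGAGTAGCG
HK2-DT: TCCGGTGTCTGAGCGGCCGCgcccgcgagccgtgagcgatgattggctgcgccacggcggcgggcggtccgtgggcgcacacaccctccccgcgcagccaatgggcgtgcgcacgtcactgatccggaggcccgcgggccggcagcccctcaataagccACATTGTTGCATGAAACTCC
INSIG1-DT: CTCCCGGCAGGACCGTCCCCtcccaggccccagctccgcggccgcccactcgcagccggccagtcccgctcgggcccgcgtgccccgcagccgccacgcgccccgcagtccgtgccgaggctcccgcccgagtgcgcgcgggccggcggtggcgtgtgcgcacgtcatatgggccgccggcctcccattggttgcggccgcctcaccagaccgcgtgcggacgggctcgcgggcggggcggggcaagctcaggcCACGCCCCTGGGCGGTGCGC
These stretches are chr16:11851561-11851641 on the minus strand, chr4:189940714-189940889 and chr16:74296743-74296833 on the plus strand, chr7:140176964-140177203 on the minus strand, and chr2:74833968-74834146 and chr7:155297522-155297795 on the plus strand. Their G and C content ran from 65.3% for FRG1-DT to 81.7% for KDM7A-DT. CCAAT, counted on both strands, occurred 2 times between HK2-DT and HK2 and 1 time between INSIG1-DT and INSIG1. The GC box GGGCGG, the core of SP1 sites, occurred 5 times in the INSIG1 stretch, 1 time each in the HK2 and RSL1D1 stretches, and not in the other 3.

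The divergent transcripts were split between the fractions. Of 128, 58 (45.3%) were higher in the nuclear fraction, 31 (24.2%) were higher in the cytoplasmic fraction and 39 passed the threshold in neither direction (limma on log2 normalized counts, adjusted p of at most 0.01). Among all 15743 tested genes with a mean of at least 20, 39.1% were called nuclear and 38.9% cytoplasmic, and among the 2113 lncRNA genes of that kind 60.3% and 17.9%. The median log2 fold change of cytoplasmic over nuclear was -0.66 for the divergent transcripts and -1.53 for all those lncRNA genes. Scaled to equal library totals, every log2 fold change was lower by about 0.66 and the split was 70 nuclear to 17 cytoplasmic. Leaving out either nuclear library lowered the calls to 30 or 31 nuclear and 13 or 12 cytoplasmic, and no transcript changed to a call in the other direction.

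A mean over both fractions can be passed through 1 of them. The mean of 20 was reached in both fractions by 83 divergent transcripts, in the nuclear fraction alone by 20 and in the cytoplasmic fraction alone by 25. Of the 83, 41 were called nuclear and 15 cytoplasmic. Nearest to the threshold were VPS33B-DT at 20.01 and KLHL7-DT at 20.01 inside it, and SUV39H2-DT at 19.84 and RB1-DT at 19.41 outside it. Counts were low near this limit, and VPS33B-DT had 33 counts in the deeper and 6 in the shallower cytoplasmic library against 20 and 22 in the nuclear libraries. Its groups overlapped, as did those of 12 divergent transcripts in all. The libraries of the fractions did not overlap for 116 (90.6%) of them and for 92.6% of all tested genes with a mean of at least 20.

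**Figure D1:**
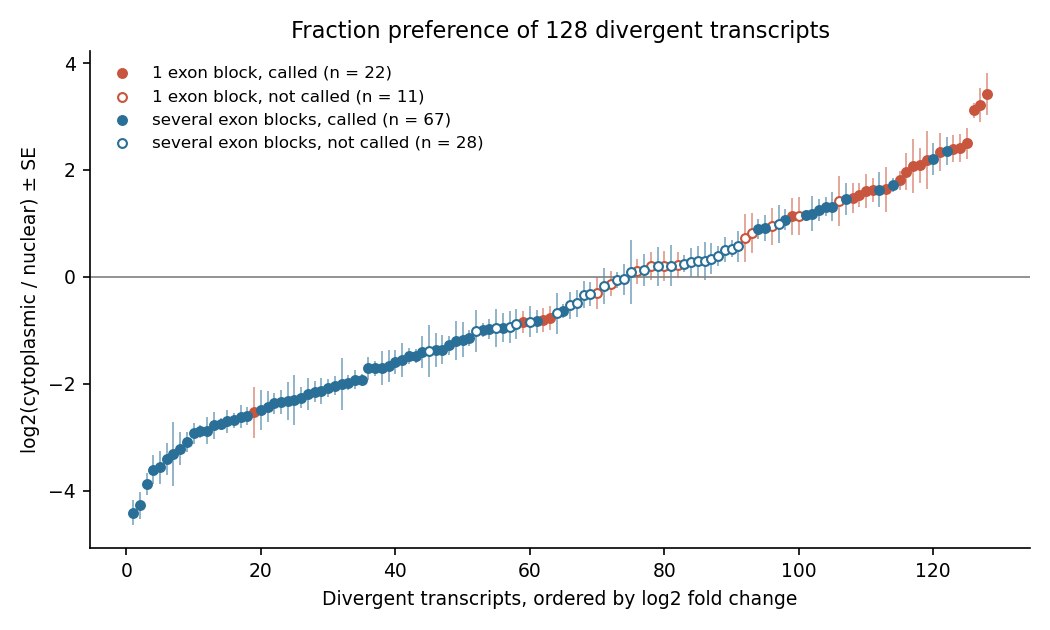
Log2 fold change (cytoplasmic over nuclear libraries) of the 128 divergent transcripts, ordered from the lowest to the highest, with bars of 1 SE from limma; filled points were called and colour gives the annotated structure. Values run from -4.41 for RSL1D1-DT to 3.42 for INSIG1-DT, and transcripts of 1 exon block gather at the upper end.

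The most cytoplasmic divergent transcripts were short and without introns. INSIG1-DT, opposite the gene of an endoplasmic reticulum protein that restrains sterol synthesis, had 11.2 and 5.89 normalized counts in the nuclear libraries and 71.5 and 118 in the cytoplasmic libraries. Both cytoplasmic values lay above both nuclear values, at a log2 fold change of 3.42 (SE 0.39, adjusted p = 6.3e-06). The libraries of the fractions did not overlap for 92.6% of all tested genes with a mean of at least 20, and this transcript was chosen for its fold change. HK2-DT, beside the gene of hexokinase 2, the first enzyme of glycolysis, had 10.4 and 7.57 in the nuclear and 84.4 and 88.8 in the cytoplasmic libraries. Its log2 fold change was 3.21 (SE 0.32, adjusted p = 2.0e-06). The genes of both lie on the minus strand, at chr7:155295918-155297541 and chr2:74832655-74833987, and had annotated lengths of 1.62 and 1.33 kb, each in 1 exon block.

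Another 5 transcripts had log2 fold changes of 2.34 to 2.50. Of these only BAIAP2-DT reached a mean of 20 in both fractions, and the others passed the minimum through the cytoplasmic fraction alone. KDM7A-DT, beside a histone demethylase gene, had 14.9 and 21.9 in the nuclear and 115 and 95.4 in the cytoplasmic libraries. GOLPH3-DT, beside the gene of a Golgi membrane protein, had 19.4 and 17.7 against 101 and 99.4. CEBPA-DT, beside the gene of a transcription factor of myeloid and fat cell differentiation, had 18.6 and 20.2 against 101 and 109. These 3 had no intron, and in each both cytoplasmic values lay above both nuclear values. Fractions were separated in 92.6% of all tested genes with a mean of at least 20. BAIAP2-DT, beside the gene of an adaptor protein of the actin cytoskeleton, had 24.6 and 40.4 against 175 and 152, and had annotated introns of 0.979 kb in all. JARID2-DT, beside the gene of a Polycomb repressive complex 2 subunit, had 8.95 and 7.57 against 43.4 and 43.7, and its adjusted p moved from 9.0e-05 to 0.012 without the shallower nuclear library.

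The most nuclear divergent transcripts spanned long introns. RSL1D1-DT, beside the gene of a nucleolar protein of ribosome assembly, had 354 and 304 normalized counts in the nuclear libraries and 12.9 and 17.2 in the cytoplasmic libraries. This was the lowest log2 fold change of all, -4.41 (SE 0.23, adjusted p = 7.2e-09). Its exons summed to 0.71 kb and its introns to 54.7 kb, and a share of 0.70 of its span was covered by other genes in GENCODE 44. The authors left stretches that genes of their own annotation share out of the counts. MMADHC-DT, beside a gene of vitamin B12 metabolism, had 261 and 238 in the nuclear and 10.6 and 14.6 in the cytoplasmic libraries, a log2 fold change of -4.27 (SE 0.25, adjusted p = 1.8e-08). It had the longest introns of all members, 451 kb in sum. RSL1D1-DT and MMADHC-DT passed the minimum mean through the nuclear fraction alone, with cytoplasmic means of 15.1 and 12.6. DPH6-DT, beside a gene for the synthesis of diphthamide on elongation factor 2, had 480 and 447 against 25.8 and 37.1, a log2 fold change of -3.88 (SE 0.21, adjusted p = 7.1e-09), with 311 kb of introns. These 3 genes lie at chr16:11851622-11907054, chr2:149587196-150047447 and chr15:35546154-35860199, all on the plus strand.

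The other 5 of the lowest 8 lay between -3.61 and -3.22. Of these only LYPLAL1-DT reached a mean of 20 in both fractions, and the others passed the minimum through the nuclear fraction alone. AGK-DT, beside the gene of a mitochondrial lipid kinase, had 180 and 231 in the nuclear and 19.9 and 13.3 in the cytoplasmic libraries. PSMD7-DT, beside the gene of a proteasome lid subunit, had 135 and 161 against 10.6 and 17.2, over 29 exon blocks and 346 kb of introns. FRG1-DT had 161 and 142 against 16.4 and 9.28. In all 3 both nuclear values lay above both cytoplasmic values, and 92.6% of all tested genes with a mean of at least 20 had fractions without overlap. LYPLAL1-DT had 243 and 272 against 39.9 and 18.6. LGALSL-DT had 82.0 and 54.7 against 14.1 and 2.65, the last from 2 counts. Without the deeper nuclear library the adjusted p was 0.076 for LGALSL-DT and 0.012 for LYPLAL1-DT, and without the shallower one 0.048 and 0.013, so that neither passed the threshold. Over all libraries left out in turn, the log2 fold change lay between -4.42 and -2.21 for LGALSL-DT and between -3.76 and -2.68 for LYPLAL1-DT, both highest without the shallower cytoplasmic library.

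**Figure D2:**
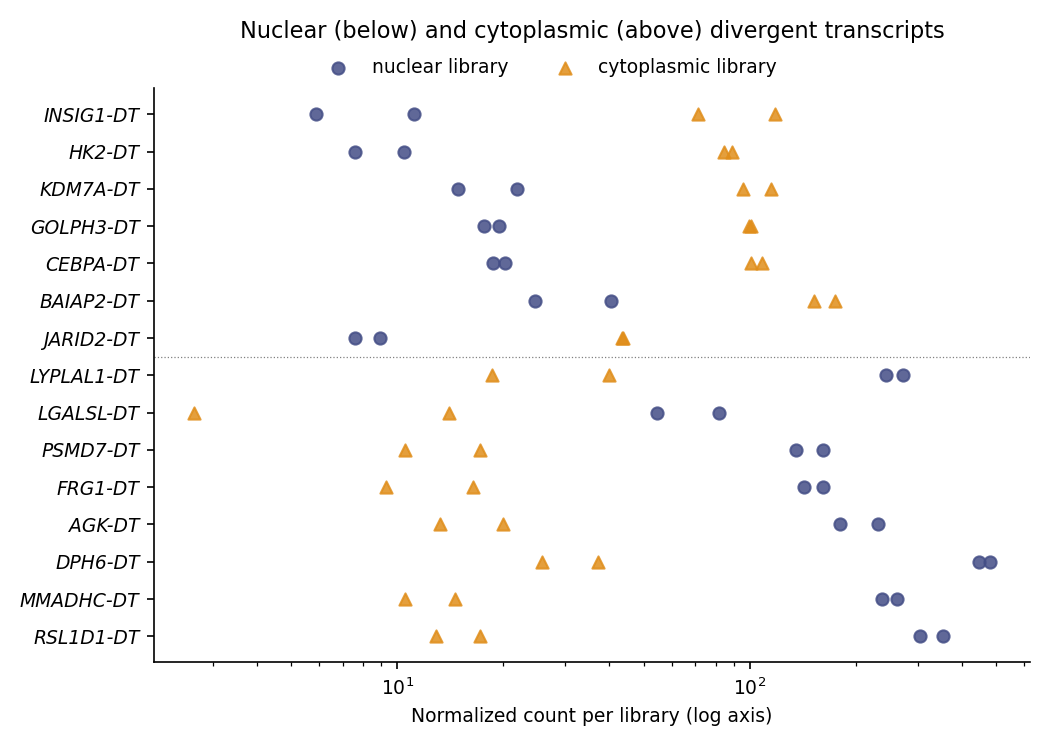
Normalized counts (log axis) in the 2 nuclear libraries (circles) and the 2 cytoplasmic libraries (triangles) for 8 called nuclear (below) and 7 called cytoplasmic (above) divergent transcripts described in the text. No circle overlaps the triangles of its row, and LGALSL-DT has the widest cytoplasmic spread, from 2.65 to 14.1. The rows were chosen by fold change, and fractions do not overlap in 92.6% of all tested genes with a mean of at least 20. Only DPH6-DT, LYPLAL1-DT and BAIAP2-DT reach a mean of 20 in both fractions.

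The 8 divergent transcripts with the highest means, which are not corrected for length, were RAB30-DT, GMDS-DT, NIPBL-DT, GARS1-DT, MAP4K3-DT, TMCC1-DT, CTBP1-DT and ZNF594-DT. RAB30-DT, beside the gene of a Golgi small GTPase, had 2033 and 2027 in the nuclear and 329 and 273 in the cytoplasmic libraries, a log2 fold change of -2.76 (SE 0.12). GMDS-DT, beside the gene of the first enzyme of GDP-fucose synthesis, had 1319 and 1454 against 183 and 190, a log2 fold change of -2.89 (SE 0.12). GARS1-DT, beside the glycyl-tRNA synthetase gene, had 1152 and 1076 against 301 and 286, a log2 fold change of -1.92 (SE 0.11). All 3 were nuclear, and shares of 0.70 and 0.63 of the spans of RAB30-DT and GARS1-DT were covered by other genes. MAP4K3-DT at -1.48, ZNF594-DT at -2.68 and TMCC1-DT at -0.64 were nuclear too, the last with an adjusted p of 0.00081 that moved to 0.030 without the deeper nuclear library. NIPBL-DT, beside the cohesin loader gene, went the other way with 460 and 425 in the nuclear and 988 and 973 in the cytoplasmic libraries, a log2 fold change of 1.15 (SE 0.11, adjusted p = 1.1e-06). CTBP1-DT, beside a transcriptional corepressor gene, had 175 and 199 against 634 and 599, at 1.72 (SE 0.13, adjusted p = 1.5e-07). It had 29.0 kb of introns and was the cytoplasmic transcript with the most intron sequence.

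Across the members the fraction preference went with the annotated intron length, which the choice of members did not use. Of the 33 divergent transcripts in 1 exon block, 18 were called cytoplasmic and 4 nuclear, with a median log2 fold change of 1.48. With introns of under 10 kb in sum, 11 of 29 were cytoplasmic and 5 nuclear, at a median of 0.29, which turned to -0.37 with equal library totals. With 10 to 50 kb, 2 of 39 were cytoplasmic and 23 nuclear, at a median of -1.02. With 50 kb or more, none of 27 was cytoplasmic and 26 were nuclear, at a median of -2.34, and the remaining transcript, ITGB1-DT, was at -0.32. Some of these 27, among them RSL1D1-DT, MMADHC-DT, FRG1-DT and PSMD7-DT, passed the minimum mean through the nuclear fraction alone. No counts by intron length were made without such members. The Spearman correlation across the 128 genes of log2 fold change with intron length was -0.74, and within the 95 with introns it was -0.65. It was -0.28 with exonic length, -0.33 with the mean count and -0.33 with the share of the span covered by other genes. The correlations over all 128 included the 20 members that reached a mean of 20 in the nuclear fraction alone. They also included the 25 that reached it in the cytoplasmic fraction alone, and no correlation was computed without these members. A like division by structure was seen outside the members, in genes chosen by the same mean over both fractions. Of the 255 other tested lncRNA genes in 1 exon block with a mean of at least 20, 48.2% were cytoplasmic and 18.8% nuclear, beside 54.5% and 12.1% of the divergent transcripts in 1 block. With several blocks the shares were 13.0% and 67.5% of 1709 other lncRNA genes, beside 13.7% and 56.8% of the divergent transcripts, and no difference between these groups was tested. Genes are not independent replicates, the points share the same 4 libraries, and reads in introns and exons were counted together.

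The members in 1 exon block often passed the minimum through the cytoplasm, as 18 of the 33 reached a mean of 20 in the cytoplasmic fraction alone and 1 in the nuclear fraction alone. Of the other 14, which reached it in both fractions, 5 were cytoplasmic and 3 nuclear, with a median of 0.20 that turned to -0.45 with equal library totals. Of the 69 with several blocks that reached it in both, 10 were cytoplasmic and 38 nuclear, with a median of -0.97. Among the 103 members with a covered share of their span under 0.5, the counts were 29 cytoplasmic and 42 nuclear. The 4 nuclear transcripts of 1 exon block were MANEA-DT, C2orf49-DT, ZKSCAN2-DT and MRPL20-DT, named after their values were seen. MANEA-DT passed the minimum through the nuclear fraction alone and stood apart among them, at a log2 fold change of -2.53 (SE 0.48). It had 40.3 and 44.6 normalized counts in the nuclear and 11.7 and 3.98 in the cytoplasmic libraries. The other 3 lay between -0.84 and -0.76. These calls were few and not stable, as 0 of the 4 were called without either nuclear library and 1 was called without the shallower cytoplasmic library or without a minimum mean, when C2orf49-DT, ZKSCAN2-DT and MRPL20-DT were lost. By the authors' test ZKSCAN2-DT and MRPL20-DT were lost.

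**Figure D3:**
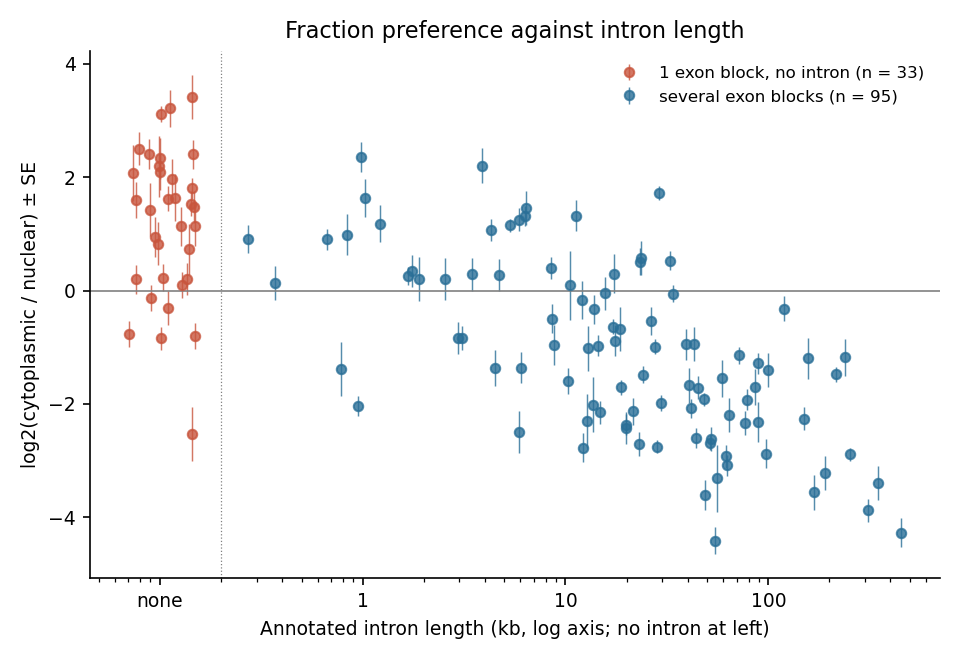
Log2 fold change (cytoplasmic over nuclear, bars of 1 SE) against the summed annotated intron length in kb on a log axis; transcripts without an intron are spread sideways at the left for legibility. The 27 transcripts with 50 kb or more of introns all lie below 0, and the 33 without an intron have a median of 1.48, which is 0.20 for the 14 that reach a mean of 20 in both fractions. Some of the 27 reach that mean in the nuclear fraction alone.

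The divergent transcripts held a small part of the RNA of either fraction. They made up 0.114% and 0.112% of the normalized counts in the nuclear libraries and 0.0402% and 0.0375% in the cytoplasmic libraries. The 95 transcripts with several exon blocks held 0.107% and 0.104% in the nucleus against 0.0299% and 0.0276% in the cytoplasm. For the 33 in 1 block the order was reversed, with 0.00679% and 0.00715% in the nuclear and 0.0103% and 0.0099% in the cytoplasmic libraries. These shares are set against all counts of a library and do not depend on the size factors.

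The fraction of a divergent transcript and that of its partner gene showed little relation. Of the 128 partners 124 were tested, as the counts of 2 were not resolved and the means of 2 were under 5. Of the tested partners 61 were called cytoplasmic and 40 nuclear, a split that turned to 40 and 60 with equal library totals. The Spearman correlation between the log2 fold changes of transcript and partner was 0.04 across the 124 pairs. Of the pairs in which both were called, 32 had the same direction (14 cytoplasmic, 18 nuclear), and 40 had opposite directions, 31 of them with a nuclear transcript and a cytoplasmic partner and 9 the other way round. The 95% interval of transcript minus partner lay below 0 for 60 pairs, above 0 for 34 and held 0 for 30, intervals for single pairs without adjustment for their number. The median difference was -0.49 in all, -1.24 for transcripts with several exon blocks and 1.03 for those in 1 block. In the pairs whose transcript reached a mean of 20 in both fractions it was -1.07 for 67 with several blocks and 0.02 for 12 in 1 block, so the value of 1.03 rests on transcripts that passed the minimum through 1 fraction. A difference within a pair does not depend on the scaling of the libraries.

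The pairs that differed most with the transcript on the nuclear side had strongly cytoplasmic partner mRNAs. MMADHC had 480 and 521 normalized counts in the nuclear and 1856 and 2350 in the cytoplasmic libraries, a difference of -6.34 for MMADHC-DT minus MMADHC on the log2 scale (95% interval -6.96 to -5.71). RSL1D1, with 1028 and 1172 against 4468 and 3383, exceeded RSL1D1-DT by a difference of -6.24 for transcript minus gene (-6.83 to -5.65). RPL34, a protein of the large ribosomal subunit, had 1238 and 1463 in the nuclear and 14177 and 11858 in the cytoplasmic libraries. RPL34-DT had 147 and 159 against 30.5 and 29.2, a difference of -5.61 (-6.16 to -5.05). PSMD7-DT and PSMD7 differed by -5.25 (-5.94 to -4.55), and NDUFA6-DT and the respiratory chain gene NDUFA6 by -4.84 (-5.31 to -4.37). In all 5 pairs both RNAs were called, in opposite directions.

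On the other side stood pairs with a nuclear partner. CENATAC, a gene of the minor spliceosome, had 2199 and 2303 normalized counts in the nuclear and 235 and 204 in the cytoplasmic libraries, while CENATAC-DT had 148 and 140 against 172 and 170. CENATAC-DT itself passed the threshold in neither direction (log2 fold change 0.25, adjusted p = 0.17, and -0.41 with equal library totals), and the difference of the pair was 3.61 (3.18 to 4.04). PCCA, a mitochondrial carboxylase subunit gene, had 6273 and 5646 against 483 and 525, and PCCA-DT had 192 and 203 against 199 and 180, a difference of 3.51 (3.10 to 3.91). PCCA-DT itself passed in neither direction (-0.06, adjusted p = 0.74), and with equal library totals it was called nuclear at -0.72 (adjusted p = 0.0011). TMCC1-DT and TMCC1 differed by 2.58 (2.21 to 2.94), both on the nuclear side. KDM7A-DT and BAIAP2-DT differed from their partners by 2.54 each (1.87 to 3.21 and 1.88 to 3.20), with partners that passed in neither direction. JARID2-DT, whose mean was under the limit of 50 used for this choice of pairs, differed by 4.56 (3.73 to 5.39) from JARID2, which had 6624 and 5723 against 1317 and 1321. KDM7A-DT and JARID2-DT had passed the minimum mean of 20 through the cytoplasmic fraction alone. RAB30-DT and GMDS-DT lay near their partners, with differences of 0.68 (-0.14 to 1.49) and 0.20 (-0.17 to 0.57).

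**Figure D4:**
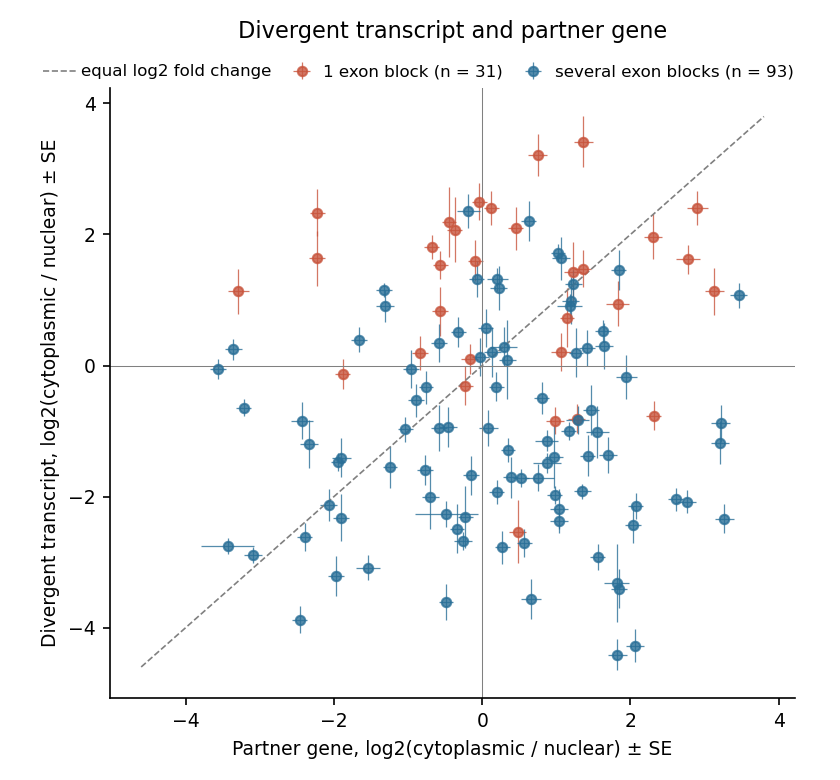
Log2 fold change (cytoplasmic over nuclear, bars of 1 SE) of 124 divergent transcripts against that of their partner genes; the dashed line marks equal values. Points fill all 4 quadrants, and transcripts of 1 exon block have a median difference from the line of 1.03, which is 0.02 for the 12 that reach a mean of 20 in both fractions.

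The other name classes of lncRNA with a mean of at least 20 showed a similar division by structure. Antisense lncRNAs, with symbols ending in -AS, had 96 of 456 genes called cytoplasmic and 263 nuclear, at a median log2 fold change of -1.19. Intergenic lncRNAs, with symbols starting with LINC, had 30 of 263 cytoplasmic and 184 nuclear, at a median of -2.28. In 1 exon block, 20 of 31 -AS genes were cytoplasmic and 3 nuclear (median 1.56), and 5 of 15 LINC genes were cytoplasmic and 4 nuclear (median 0.26, which turned to -0.40 with equal library totals). With several blocks, the counts were 76 cytoplasmic and 260 nuclear of 424 -AS genes and 25 and 179 of 247 LINC genes. The divergent transcripts had shorter introns than both classes, at a median of 10.9 kb against 24.7 kb for -AS and 55.2 kb for LINC genes. No test of the differences between the classes was run. The -AS and LINC genes were chosen by the same mean over both fractions, and were not limited to those that reached 20 in both. That limit took the median of the divergent transcripts in 1 block from 1.48 to 0.20, and its effect on the other classes was not tested.

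**Figure D5:**
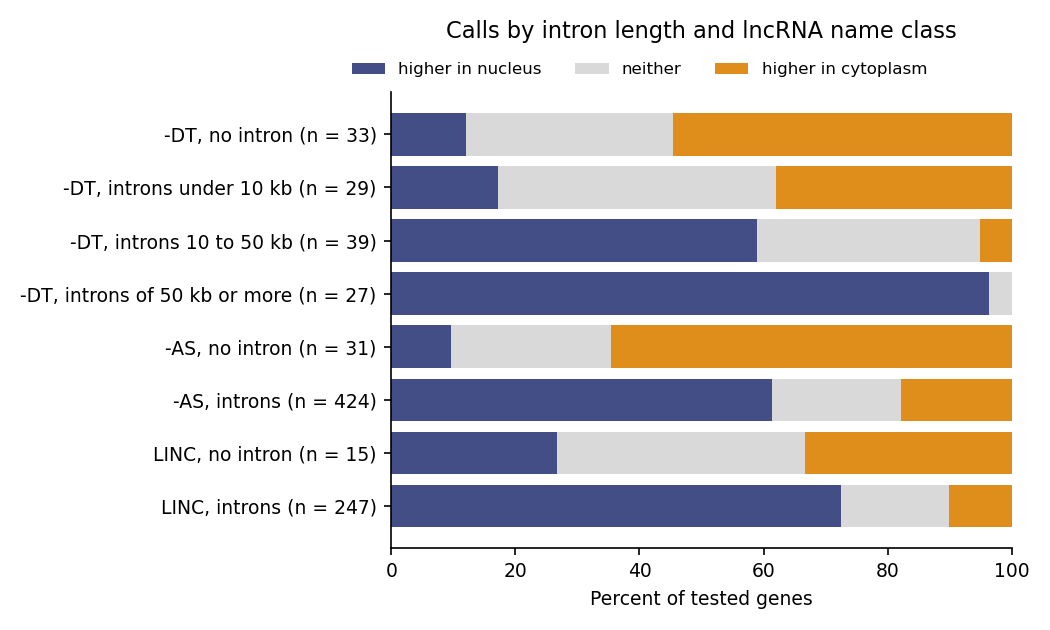
Percent of tested genes called higher in the nucleus, in the cytoplasm or in neither (limma, adjusted p of at most 0.01), for divergent transcripts (-DT) by summed intron length and for antisense (-AS) and intergenic (LINC) lncRNAs with and without introns. The cytoplasmic part shrinks from 54.5% without an intron to 0% at 50 kb or more of introns in the divergent transcripts. It is 35.7% for the 14 without an intron that reach a mean of 20 in both fractions. Some of those with 50 kb or more of introns reach that mean in the nuclear fraction alone.

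The promoters of the divergent transcripts were rich in G and C. In the window from 250 bases before to 50 after the annotated start, the median G and C content was 68.7%, against 65.0% for their partners. It was 59.3% for lncRNA genes and 63.0% for protein-coding genes with a mean of at least 20. GGGCGG on either strand was in 72.7% of the member, 65.6% of the partner, 47.5% of the lncRNA and 63.1% of the protein-coding windows. CCAAT on either strand was in 32.8%, 43.0%, 32.6% and 36.4%. TATAAA between 40 and 15 bases before the start was in none of the 128 member windows, and in 0.781%, 0.807% and 1.35% of the partner, lncRNA and protein-coding windows. In the 1000 bases of genomic sequence after the start, AATAAA, the main poly(A) signal, read on the transcribed strand, was in 25.8% of the divergent transcripts and in 12.5% of their partners, and in 32.1% of all such lncRNA genes. GGTAAG, a match to the start of a 5′ splice site, was in 24.2%, 21.9% and 23.7%. AATAAA was in 27.3% of the transcripts in 1 exon block and in 25.3% of those with several, and GGTAAG in 15.2% and 27.4%. A match describes these letters in the window only.

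The mRNAs of the machinery that handles upstream transcripts were looked at in a list of 47 genes: the nuclear exosome and its adaptors, the Integrator complex, cleavage and polyadenylation factors, U1 snRNP proteins and the cap-binding complex. Of these 23 were called cytoplasmic and 10 nuclear, against 43.0% and 34.9% of all protein-coding genes with a mean of at least 20, and the split turned to 12 and 22 with equal library totals. The lowest value was that of CSTF3, a subunit of the cleavage stimulation factor, with 2679 and 2769 normalized counts in the nuclear and 670 and 653 in the cytoplasmic libraries (log2 fold change -2.04, SE 0.10). The highest was that of EXOSC4, an exosome core subunit, with 69.4 and 77.4 against 429 and 521 (2.68, SE 0.16). Members of single adaptor complexes differed, as seen in genes picked out after their values were known. In the nuclear exosome targeting complex, ZCCHC8 was at -0.92 and RBM7 at 1.20, both called, and MTREX at -0.03 passed in neither direction. Of the poly(A) tail exosome targeting connection, ZFC3H1 was at -1.43 and PABPN1 at 1.07, both called. These are levels of the mRNAs and not of the proteins.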

How the data were processed

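Per the labels and the study's methods, 400 ng of RNA per library was made into ribosome-depleted, stranded libraries and read from both ends for 100 nt. The authors aligned to hg38 with STAR, counted exons and introns with featureCounts 2.0.2 on GENCODE 34 with added NCBI genes, removed overlapping stretches and readthrough transcripts, and ran DESeq2; its version and the strand setting are not given in the sources used here. The deposited table holds a mean signal (normalized count over all libraries), the authors' log2 fold change and its log2 standard error, a Wald score, and p-values. Columns of other samples numbered 0. The authors' comparison columns were used only to find counts and as an alternative.

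A gene's mean is a sum of whole counts, each worth 1 step per library. Counts were recovered from 4 steps (size factors 1.34, 1.19, 0.853 and 0.755), assigned to fractions by the sign of the fold change of genes with 1 count. They came from the mean alone for 16451 genes and from the mean with the fold change and standard error, to within a log2 tolerance of 1e-06 (1e-05 at means under 300), for 15848. This covered 99.8% of genes with a mean of 5 to 2000 and all 128 members. For a member, a median of 1 and at most 298 sets of whole counts gave the mean. In simulated data 569 of 569 genes were recovered rightly. The simulated fold changes and standard errors came from the same formulas that the search inverts. The simulation thus checks the search, and not whether the authors' test follows those formulas. Library totals take unresolved genes at their fraction mean.

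limma 3.58.1 (R 4.3.3) with trend was fitted to log2(count / size factor + 0.5) of 19475 genes with a mean of at least 5, with fraction as the only term and Benjamini-Hochberg adjustment over all of them; fold changes of low genes are understated on this scale. In simulated data for this comparison on 19475 genes it called 58 of 100 genes changed by 1 log2 unit and 73 of 100 changed by 2, with 4 false calls. Intervals of pair differences combine both SEs, with 11.3 degrees of freedom. They take transcript and partner as independent, although both were measured in the same 4 libraries, so variation shared within a library is not accounted for. Structure came from GENCODE 44: exon blocks are merged exons, and introns the rest of the span. The members and lists were chosen with earlier results of these data known. Named were the 8 called members with the highest and the 8 with the lowest fold change, the 8 with the highest mean, the 5 pairs at each end with means of at least 50, and members at the threshold; 1 transcript that this rule names is not reported here.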

Additional observations from a re-analysis of the deposited data

How the results depend on the processing

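The replicate numbers of the recovered libraries are unknown, so both possible pairings were fitted with a replicate block, an alternative chosen after seeing the data. Pairing the deeper libraries of the fractions gave 53 nuclear and 28 cytoplasmic calls and 2 nuclear and 17 cytoplasmic ones in 1 exon block, and the crossed pairing gave 62, 35, 4 and 20. For the divergent transcripts, Bonferroni adjustment left 28 nuclear and 3 cytoplasmic calls and equal library totals 17 cytoplasmic ones; leaving out single libraries gave 30 to 61 nuclear and 12 to 33 cytoplasmic calls, the low values without a nuclear library, when 46 of 89 calls were lost. The authors' test, voom weights, a pseudocount of 2, other minimum means and centring on protein-coding genes kept both counts within 1.5 times. In no alternative did a called member change to the other direction. For transcripts in 1 exon block, Bonferroni left 1 cytoplasmic and 0 nuclear calls, leaving out single libraries gave 8 to 20 cytoplasmic and 0 to 4 nuclear calls, and the nuclear count was 2 by the authors' test and 1 without a minimum mean. Equal library totals moved the median log2 fold change to -1.32 over all members, 0.82 in 1 block and -1.84 in several blocks, and the median over members with a covered share under 0.5, an alternative chosen after seeing the data, was -0.32.

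Equal totals gave 54 cytoplasmic -AS and 18 cytoplasmic LINC genes, and 12 cytoplasmic and 22 nuclear machinery genes. Leaving out single libraries gave 44 to 98 cytoplasmic and 145 to 266 nuclear -AS genes, 13 to 32 and 112 to 189 LINC genes, and 15 to 21 and 6 to 9 machinery genes. Uncalled members changed sign: with equal totals CENATAC-DT was at -0.41, KLHL7-DT at -0.44 and VPS33B-DT at -0.55; without the deeper nuclear library KLHL7-DT was at -0.15 and VPS33B-DT at -0.06. Over all libraries left out in turn, KLHL7-DT lay between -0.15 and 0.56, VPS33B-DT between -1.02 and 1.20 and PCCA-DT between -0.13 and 0.016. The cause was not tested. The summed counts of a member were as low as 20 in the nuclear and 13 in the cytoplasmic libraries, which limits precision.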

Other observations

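The divergent transcripts can also be grouped by what the partner gene does, in lists made after their values were known. Beside genes of mRNA processing, modification and export, 5 of 8 transcripts were called cytoplasmic and 2 nuclear, at a median log2 fold change of 1.47 (0.81 with equal library totals, when 2 were cytoplasmic and 3 nuclear). Of all 128 transcripts, 24.2% were cytoplasmic and 45.3% nuclear. Among the cytoplasmic ones were PAPOLA-DT beside the poly(A) polymerase gene, YTHDF3-DT beside an N6-methyladenosine reader gene, CD2BP2-DT and TFIP11-DT. PAPOLA-DT, YTHDF3-DT and CD2BP2-DT passed the minimum mean through the cytoplasmic fraction alone, with nuclear means of 12.6, 8.08 and 19.5. YTHDF3-DT, CD2BP2-DT and TFIP11-DT lost their calls with equal library totals, and YTHDF3-DT also without a minimum mean. Beside genes of chromatin and chromosome structure, 5 of 12 were cytoplasmic and 4 nuclear, at a median of 0.01, which turned to -0.64 with equal library totals. The median intron length was 3.18 kb in the first of these groups and 12.1 kb in the second.

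Beside genes of translation and the ribosome, 2 of 13 transcripts were called cytoplasmic and 7 nuclear, at a median of -0.88. The cytoplasmic ones were EIF3J-DT at 1.31 and MIF4GD-DT at 1.62. Beside membrane traffic genes, 5 of 9 were nuclear and 2 cytoplasmic, at a median of -2.04. Beside metabolic genes, 6 of 13 were nuclear and 4 cytoplasmic, and beside genes of transcription factors and zinc finger proteins, 6 of 15 and 4. The medians of these lists were -0.06 and 0.20, and with equal library totals they were -0.72 and -0.45, with 7 nuclear transcripts in each and 3 and 2 cytoplasmic ones. No list was tested, since all were formed with the values in view.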
